A study of Mus musculus with 19 samples.

Results

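The oligosaccharyltransferase complex was followed at the RNA level through its 9 best known subunit genes, Stt3a, Stt3b, Rpn1, Rpn2, Dad1, Ddost, Ost4, Tusc3 and Magt1, which were taken by gene symbol out of 25890 gene names. The set was built around Stt3a because its RNA was lower in the CPEB3 knockout, so the set was chosen on the difference of Stt3a between genotypes, which is given as a description, with no test. RNA sequencing covered 19 libraries of mouse eggs and embryos in 4 groups: 5 of MII oocytes labelled Het, 5 of MII oocytes labelled KO, 5 of 2cell embryos labelled Het and 4 of 2cell embryos labelled KO. CPEB3 is an RNA-binding protein of the cytoplasmic polyadenylation element binding family, and the study asked how its absence from the egg changes maternal RNA. The females were BL6 mice, 6 to 10 weeks old, that received 5 IU of pregnant mare serum gonadotropin and, 48 h later, 5 IU of hCG. The 2cell embryos came from such females after mating and were collected 37 h after hCG. Zygotes of the study were cultured in M16 medium. KO is CPEB3-/- in the study's notation, a deletion of floxed CPEB3 by a Cre driven by the Zp3 promoter, which is active in growing oocytes. The deletion is therefore maternal, and the knockout females were mated with wild-type males. The control carries the label Het and is written CPEB3+/- for the sequencing, but the methods also use LoxP/- with the Cre and CPEB3+/+ alike for a control called wild type, so the allele count of the control is not certain. Each library was made from a few pooled cells, so fewer cells and less RNA per cell could not be told apart, and no source stated which libraries shared a female.

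N-glycosylation attaches a preassembled sugar tree to asparagines of proteins that enter the endoplasmic reticulum, and oligosaccharyltransferase is the enzyme that makes this transfer. STT3A and STT3B are its alternative catalytic subunits. The STT3A form sits at the protein translocon and works on chains that are still being made, whereas the STT3B form carries the oxidoreductase MAGT1 or TUSC3 and reaches sites that were skipped. Ribophorin 1 and 2 (RPN1, RPN2), DDOST, DAD1 and the small OST4 are shared by both forms. Growing oocytes need this machinery for the glycoproteins of the zona pellucida, and eggs and embryos for surface and secreted proteins. Until the embryonic genome becomes active, eggs and embryos rely on RNA stored during oocyte growth.

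Sequencing depth was similar in all libraries, 17240000 to 23620000 fragments with a median of 19740000, as read from the step size of the deposited values. The share of fragments assigned to listed genes was 60.0 to 62.0% in Het MII, 55.9 to 60.5% in KO MII, 49.3 to 53.3% in Het 2cell and 44.7 to 48.4% in KO 2cell libraries. Cpeb3 RNA itself was higher, not lower, in the libraries labelled KO. Its level rose in MII oocytes (log2 fold change 1.01, SE 0.181, adjusted p = 0.00135, groups apart), and in 2cell embryos the difference was 0.86 (SE 0.302, adjusted p = 0.0501). With 0.1 FPKM as filter and pseudocount, the design first set down, the difference in MII oocytes was 0.52, under 1.5-fold and not called, and that in 2cell embryos was called without further scaling (0.93), after scaling to library sums (1.07), with a pseudocount of 0.5 (0.81) or with all 19 libraries in 1 fit (0.89). It was also called without Het 2cell replicate D (1.10) or KO 2cell replicate B (1.02), each of which stood apart from its group for Cpeb3. Cpeb3 had been set down beforehand as the check of the labels, and its direction was opposite to a loss of Cpeb3 RNA. These values cover the whole gene, with none for the deleted part alone, so the labels remain unchecked. Oocyte markers (8 genes, Zp3 and Gdf9 among them) summed to 7156 to 7522 fragments per 1000000 (FPM) in Het MII and 4994 to 6515 in KO MII libraries, mostly from Dppa3 (means 3717 and 2543), while Zp3 was not lower (58.0 and 72.8). The 6 markers of the 2cell stage summed to 8.66 to 10.9 FPM in Het MII but 43.9 to 97.0 in KO MII, mostly from Zscan4c and Zscan4d, and to 926 to 2023 in Het 2cell against 692 to 1047 in KO 2cell. Of 14 cumulus and granulosa cell markers listed, 10 were measured. They summed to 25.5 to 41.6 in Het MII and 26.3 to 49.3 in KO MII, and to 13.7 to 19.8 in Het 2cell and 9.75 to 17.3 in KO 2cell, with 1 of them at 0 in every Het library of a stage and 2 in every KO library. The sums in MII oocytes came mostly from Cyp19a1 (means 30.9 in Het and 34.1 in KO). Means were under 0.5 FPM for 7 of the 10 in Het MII and 8 in KO MII libraries. Of 6 blood cell markers listed, 2 were measured, both alpha globin genes. They summed to at most 0.409 in MII oocytes and to 42.4 to 133 in 2cell embryos of either genotype. The part of these shifts in the results that follow was not tested.

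Levels of different genes are given as fragments per kilobase of exon per 1000000 fragments (here, level), recomputed from the deposited values because those were scaled to the whole gene with its introns. In Het MII oocytes Stt3b was the most abundant subunit RNA at 54.2 ± 2.84 (SD, n = 5). It was followed by Dad1 at 30.2 ± 4.82, Tusc3 at 20.1 ± 1.45 and Stt3a at 12.6 ± 3.90, and the ranges of these 4 neighbours did not overlap. Ost4 (4.99 ± 1.10), Rpn1 (4.53 ± 1.38) and Ddost (3.46 ± 1.19) overlapped with their neighbours, and Magt1 (1.59 ± 0.245) and Rpn2 (0.537 ± 0.123) were lowest. Subunits that form 1 enzyme were thus represented by RNA levels that lay far apart. In Het 2cell embryos the order began with Ost4 at 76.7 ± 18.2 and Stt3b at 72.1 ± 5.83, whose ranges overlapped, followed by Dad1 at 43.1 ± 8.50. In KO 2cell embryos Stt3a, at 1.99 ± 0.268 (n = 4), had gone to the lower end of the order, where its range overlapped those of its neighbours Rpn1 and Rpn2. Magt1 was the lowest there at 0.828 ± 0.286. Where levels were taken per base of the longest transcript, the first 4 places in Het MII oocytes were the same.

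**Figure D1:**
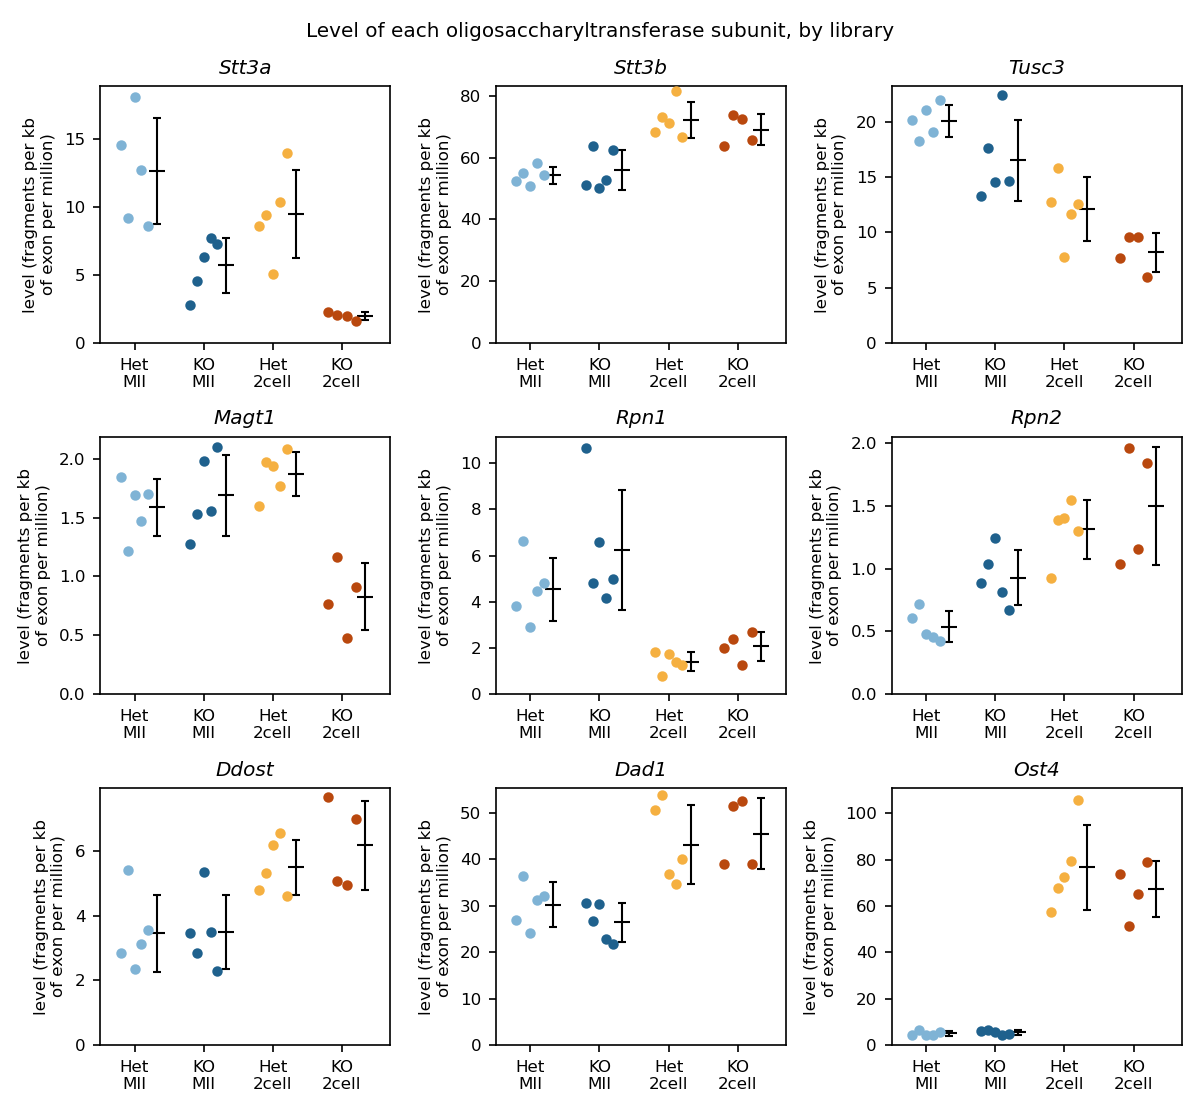
Level of each subunit RNA (fragments per kilobase of exon per 1000000 fragments, linear axis from 0) in the 19 libraries. Points are libraries, bars are the mean and SD of a group. The 4 KO 2cell libraries lay between 1.65 and 2.30 for Stt3a and between 0.477 and 1.16 for Magt1, below every Het 2cell library, and Ost4 lay between 4.12 and 6.62 in MII oocytes and between 51.5 and 106 in 2cell embryos.

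Stt3a (ENSMUSG00000032116.18) lies on chromosome 9 at 36729344 to 36767679 of GRCm38, on the minus strand. Its level in the 5 Het MII libraries was 14.5, 9.22, 18.1, 12.7 and 8.64. The 5 KO MII libraries gave 2.79, 4.57, 6.30, 7.69 and 7.27. All KO values lay under all Het values, although the highest KO library came close to the lowest Het library. In 2cell embryos the Het libraries gave 8.59, 9.41, 5.05, 10.4 and 14.0, and the KO libraries 2.30, 2.04, 1.96 and 1.65. Here the groups were well separated and the KO libraries were tightly grouped, with 285 to 389 estimated fragments behind each KO value. After scaling the libraries to each other, the difference KO minus Het was -1.30 on the log2 scale (SE 0.292) in MII oocytes and -2.26 (SE 0.239) in 2cell embryos. These are falls of 2.46-fold and 4.78-fold. These values chose the gene, so no p is given. The difference of the effects between the stages was -0.96 (SE 0.414), also a description.

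Among the subunits Stt3a had the lowest GC content of the longest transcript, 40.5%, and the longest 3′UTR, 3580 bases. A trend of the values with GC content differed between libraries, and with that trend removed the differences were -1.03 in MII oocytes and -1.81 in 2cell embryos. CPEB proteins bind U-rich elements of 3′UTRs, so the 3′UTR of the longest annotated one per gene was searched, on the transcript strand only, for U-rich and A-rich elements, with overlapping matches each counted. The U-rich group was TTTTAT, the longer forms TTTTAAAT as well as TTTTAAGT, then TTTTACT along with TTTTCAT. The A-rich group was AATAA together with ATTAAA. Stt3a held 12 U-rich and 10 A-rich matches. The 1438 tested genes with a 3′UTR of like length (within a factor of 1.25) had medians of 5 and 8, and 96.1% of them held a U-rich match. Genes of like length were not matched on GC content, which was lowest in Stt3a and Magt1 among the subunits. The elements are mostly A and T, and the part of base content in these counts was not tested. The 5 windows that follow show 1 Stt3a match to each U-rich element, with the element in capitals, read 5′ to 3′ on the minus strand of GRCm38 and written as DNA.
Stt3a chr9:36732840-36732865: tgaagatgttTTTTATatgcagttta
Stt3a chr9:36732670-36732697: gggggattttTTTTAAATgtgccttatt
Stt3a chr9:36731366-36731392: ggatacccccTTTTCATatcattttga
Stt3a chr9:36731312-36731339: ctacaaagatTTTTAAGTtgatttcatt
Stt3a chr9:36730831-36730857: gtgacaccatTTTTACTatcatctgtt
Magt1, the other subunit with lower RNA in KO embryos, held 9 U-rich and 15 A-rich matches in 3380 bases, beside medians of 5 and 8 for 3′UTRs of like length, and 2 of its U-rich matches lie side by side near the end of the 3′UTR, shown here with 1 Stt3b match for comparison.
Magt1 chrX:105968247-105968274: tttgtggaaaTTTTAAATttagctttta
Magt1 chrX:105968236-105968261: taaatttagcTTTTATctgaagtgcc
Stt3b chr9:115242720-115242745: agtgtgtcccTTTTATgaagaacccg
Stt3b held 5 U-rich matches in 1384 bases, beside a median of 2 at like length. Dad1 held 1 in 3077 bases, beside a median of 4. Rpn1 held 2 (median 2), and Ost4 and Tusc3 held 1 each (median 1). Rpn2 and Ddost held none, in 596 and 645 bases, beside medians of 1. Of all 13652 tested genes with an annotated 3′UTR (median length 1099 bases), 66.3% held a U-rich and 93.9% an A-rich match, so a match by itself is common. A match is a description of the letters and not of binding.

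Stt3b, the catalytic paralogue, did not pass the test in either stage. Its level was 52.5, 55.1, 50.7, 58.2 and 54.4 in Het MII libraries and 51.3, 63.7, 50.2, 52.6 and 62.5 in KO MII libraries. In 2cell embryos it was 68.1, 73.1, 71.1, 81.5 and 66.7 in Het and 63.7, 73.9, 72.5 and 65.7 in KO libraries. The groups overlapped at both stages. The difference KO minus Het was -0.08 (95% interval -0.32 to 0.16, adjusted p = 0.625) in MII oocytes and -0.14 (-0.40 to 0.13, adjusted p = 0.461) in 2cell embryos, so a change of the size seen for Stt3a lay outside these intervals. As a share of the summed level of both catalytic subunits within 1 library, Stt3a made up 18.8 ± 5.27% in Het MII, 9.23 ± 3.18% in KO MII, 11.6 ± 3.80% in Het 2cell and 2.81 ± 0.462% in KO 2cell libraries. This share does not depend on scaling between libraries. Its size does depend on the gene length used, here 8948 exon bases for Stt3a (longest transcript 5867) and 4221 for Stt3b. The share ranged from 13.7 to 26.3% in Het MII and from 5.16 to 12.7% in KO MII, and from 6.63 to 17.3% in Het 2cell and from 2.46 to 3.49% in KO 2cell libraries. The gene lies on chromosome 9 at 115242581 to 115310421, on the minus strand, and a processed pseudogene lies inside it on the same strand.

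**Figure D2:**
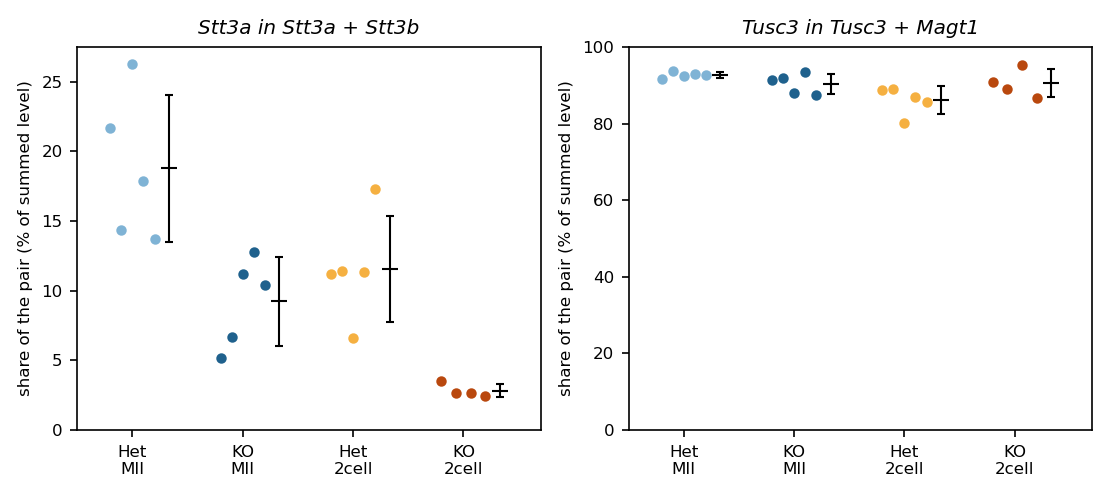
Share of the first gene in the summed level of a pair of paralogous subunits, in % (axes from 0), for Stt3a with Stt3b and for Tusc3 with Magt1. Points are libraries, bars are the mean and SD of a group. Stt3a made up 2.46 to 3.49% of its pair in KO 2cell libraries, below the 6.63 to 17.3% of Het 2cell libraries, and Tusc3 made up 80.1 to 95.3% of its pair in all 19 libraries.

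Magt1 (ENSMUSG00000031232.16, X chromosome 105968084 to 106011906, minus strand), the thiol oxidoreductase of the STT3B form, was the subunit besides Stt3a that fell in KO embryos. In MII oocytes its level was 1.84, 1.22, 1.69, 1.47 and 1.70 in Het libraries and 1.28, 1.53, 1.98, 1.55 and 2.10 in KO libraries. In 2cell embryos it was 1.60, 1.97, 1.94, 1.77 and 2.08 in Het and 0.767, 1.16, 0.477 and 0.907 in KO libraries. The oocyte groups overlapped, whereas every KO embryo library lay below every Het embryo library. The change in embryos was -1.29 on the log2 scale (SE 0.279, adjusted p = 0.00359), a fall of 2.44-fold, and the difference in oocytes was -0.04 (95% interval -0.47 to 0.39, adjusted p = 0.897). The difference of these effects between the stages, tested as an interaction, was -1.25 (SE 0.332, adjusted p = 0.0284, with 5.89% of all 17769 genes tested called), and Magt1 was the only 1 of the 8 subunits tested there that passed. Few fragments stood behind the KO embryo values, 38.4 to 101 per library. The GC content of the longest Magt1 transcript was 40.7%, close to that of Stt3a. With the GC trend removed its fall in embryos was -0.85 (adjusted p = 0.0647) and the interaction -1.05 (adjusted p = 0.0601), both no longer called. The interaction was also lost with the replicate block (-1.20, adjusted p = 0.0714). It was lost as well without Het MII replicate B (-1.13), Het MII replicate D (-1.21), KO MII replicate C (-1.18), KO MII replicate E (-1.15), Het 2cell replicate E (-1.21) or KO 2cell replicate C (-1.01), while the fall in embryos was called in all 9 fits without 1 library. A stretch of up to 205 bases of the longest Magt1 transcript was at least 90% alike to transcripts of 188 other genes, so reads from it may be shared.

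Tusc3 (chromosome 8, 39005845 to 39165114, plus strand) encodes the alternative oxidoreductase and was the more abundant of the pair at the RNA level. In MII oocytes its level was 20.1, 18.3, 21.0, 19.1 and 21.9 in Het and 13.3, 17.7, 14.6, 22.4 and 14.7 in KO libraries. In 2cell embryos it was 12.7, 15.8, 7.79, 11.7 and 12.5 in Het and 7.72, 9.54, 9.62 and 5.94 in KO libraries. Most KO libraries were low, but 1 KO oocyte library was the highest of its stage and 1 Het embryo library lay among the KO values. The difference KO minus Het was -0.43 (SE 0.153, adjusted p = 0.0533) in MII oocytes and -0.62 (SE 0.223, adjusted p = 0.0532) in 2cell embryos, and neither was called. In 2cell embryos it was called without Het 2cell replicate C (-0.81) or KO 2cell replicate B (-0.74), with a pseudocount of 1 or 0.5 (adjusted p = 0.0464 and 0.0480) and with all 19 libraries in 1 fit (adjusted p = 0.0303). With the GC trend removed it was -0.23 (adjusted p = 0.475). Tusc3 made up 86.1 ± 3.63% of the Tusc3 and Magt1 level in Het and 90.5 ± 3.60% in KO 2cell libraries, which overlapped.

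Ribophorin genes encode the transmembrane subunits shared by both forms. Rpn2 (chromosome 2, 157279017 to 157326319, plus strand) had a level of 0.606, 0.720, 0.478, 0.455 and 0.425 in Het MII and 0.882, 1.03, 1.25, 0.811 and 0.668 in KO MII libraries. The KO values were the higher ones, but the lowest KO library lay within the Het range. The difference was 0.64 (SE 0.228, 1.56-fold, adjusted p = 0.0519), just outside the threshold. It was called without Het MII replicate B (0.72) or KO MII replicate E (0.73), with the values as deposited (0.76, adjusted p = 0.0293) and with each library scaled to its sum (0.81, adjusted p = 0.0238). With the GC trend removed it was 0.47 (adjusted p = 0.136). In 2cell embryos the difference was 0.08 (95% interval -0.51 to 0.67, adjusted p = 0.862). Rpn1 (chromosome 6, 88084482 to 88105304, plus strand) differed by 0.30 (-0.15 to 0.76, adjusted p = 0.315) in MII oocytes and by 0.49 (-0.14 to 1.12, adjusted p = 0.253) in 2cell embryos, with KO MII replicate A the highest of all libraries at 10.6.

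Of the remaining shared subunits none was called between genotypes. Dad1, the small subunit first known for its role in cell survival (chromosome 14, 54235479 to 54254104, minus strand), differed by -0.31 in MII oocytes (95% interval -0.55 to -0.08, adjusted p = 0.0501) and by 0.01 in 2cell embryos (-0.36 to 0.38, adjusted p = 0.972). Ddost, a membrane-anchored subunit with a luminal domain (chromosome 4, 138304730 to 138312628, plus strand), differed by -0.11 (-0.59 to 0.38, adjusted p = 0.761) and by 0.08 (-0.37 to 0.53, adjusted p = 0.818). Ost4, a very small membrane subunit (chromosome 5, 30905885 to 30907788, minus strand), differed by 0.01 (-0.37 to 0.38, adjusted p = 0.983) and by -0.24 (-0.62 to 0.13, adjusted p = 0.342). These intervals allow changes of up to about the 1.5-fold threshold in some cases and do not show that the levels were equal.

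Stt3a was in the set for its fall, so it is left out of the counts. Of the other 8 subunits 0 were called by limma in KO MII oocytes (1, Rpn2, with unadjusted p and over 1.5-fold, as were 23.4% of all genes), in a comparison in which 17.8% of 12717 genes tested were called (7.9% higher, 9.88% lower). In KO 2cell embryos 1 of 8 (Magt1) was called lower and 0 higher, against 20.8% of 16500 genes (10.1% higher, 10.6% lower). Ranges of the genotypes did not overlap for 0 of the 8 in MII oocytes and 1 in 2cell embryos, beside 16.4% and 19.7% of all genes. The median log2 fold change over the 8 was -0.06 at both stages, beside 0.0031 and 0.011 over all genes tested. These shares are near the background and say nothing particular about the complex. The split of calls over all genes depended on scaling. It was 1005 higher and 1257 lower in MII oocytes, but 1434 and 918 with the values as deposited and 1688 and 814 with each library scaled to its sum. In 2cell embryos it was 1668 higher and 1757 lower, but 1889 and 1490, and 2544 and 1067.

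**Figure D3:**
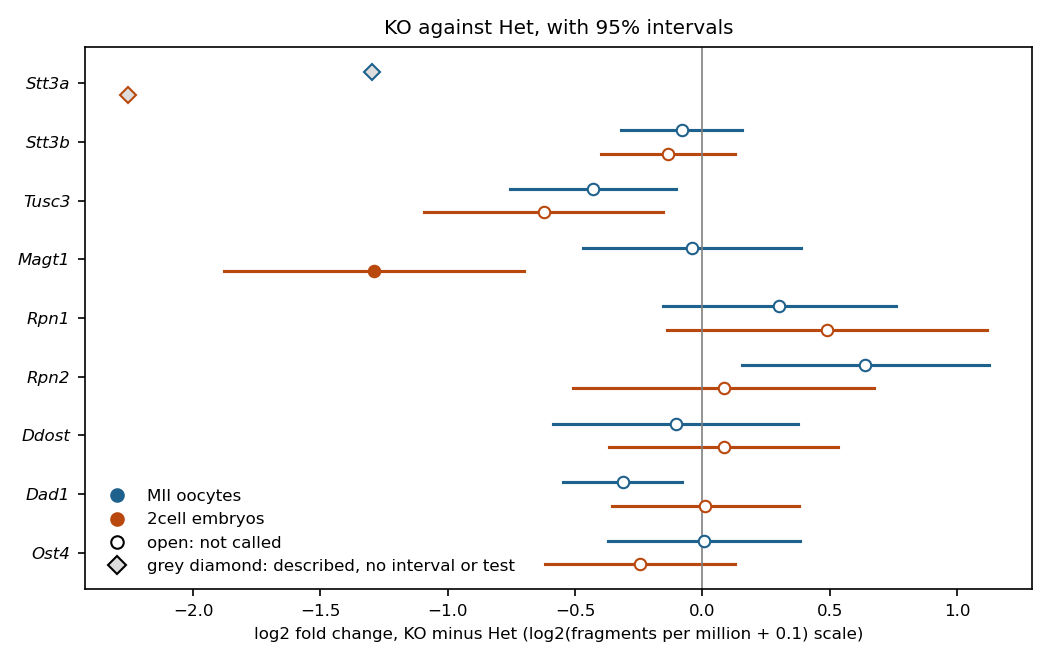
Log2 fold change KO minus Het for the 9 subunits in MII oocytes and 2cell embryos, on the log2(FPM + 0.1) scale. Filled circles were called, open circles were not, lines are 95% intervals from limma, and grey diamonds mark Stt3a, which chose the set and has no interval or test. Magt1 in 2cell embryos, at -1.29, was the tested value farthest from 0, while Stt3b lay at -0.08 and -0.14.

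More subunits were called between MII oocytes and 2cell embryos than between the genotypes, as were more genes in general. Without Stt3a, which chose the set, 3 of the other 8 subunits rose in Het libraries (Ost4, Rpn2 and Ddost) and 2 fell (Rpn1 and Tusc3), in a comparison that called 69.6% of 17769 genes tested (42.5% higher, 27.1% lower). In KO libraries 4 of the 8 rose (Ost4, Ddost, Dad1 and Rpn2) and 3 fell (Rpn1, Magt1 and Tusc3), against 68.5% of genes (42.7% higher, 25.9% lower). The median shift of all genes was 0.35 in Het and 0.41 in KO, and that of the 8 subunits 0.52 and 0.59. Among the same 8, ranges of oocytes and embryos did not overlap in Het for Stt3b, Rpn1, Rpn2, Dad1, Ost4 and Tusc3. In KO they did not overlap for Stt3b, Rpn1, Dad1, Ddost, Ost4 and Tusc3. Over all genes tested ranges did not overlap for 58.2% in Het and 58.9% in KO.

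Ost4 rose most. Its level was 4.25, 6.62, 4.15, 4.28 and 5.66 in Het MII oocytes and 57.4, 67.9, 72.7, 79.5 and 106 in Het 2cell embryos. The KO libraries followed with 6.24, 6.54, 5.66, 4.12 and 4.66 in oocytes and 73.9, 51.5, 65.4 and 79.1 in embryos. Every embryo library stood far above every oocyte library. The change was 3.98 (SE 0.171, 15.7-fold, adjusted p = 5.27e-16) in Het and 3.73 (SE 0.181, 13.2-fold, adjusted p = 7.29e-15) in KO libraries. Ost4 shares 654 bases of exon with Agbl5, a gene on the opposite strand, and the library kit does not mark the strand, so reads from that stretch cannot be assigned with certainty. Agbl5 had few fragments, and its own log2 change was 1.92 in Het and 2.03 in KO libraries.

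Rpn1 moved the other way, from 3.81, 6.63, 2.92, 4.46 and 4.83 in Het MII oocytes to 1.81, 0.785, 1.75, 1.40 and 1.25 in Het 2cell embryos. In KO libraries it went from 10.6, 4.81, 6.59, 4.15 and 5.00 to 1.98, 2.36, 1.25 and 2.69. Oocyte and embryo libraries were apart in both genotypes, and the change was -1.63 (SE 0.258, adjusted p = 4.80e-06) in Het and -1.44 (SE 0.274, adjusted p = 5.56e-05) in KO. Its partner Rpn2 rose by 1.32 (SE 0.242, adjusted p = 3.30e-05) in Het, from the oocyte values given above to 0.922, 1.39, 1.40, 1.55 and 1.30 in embryos, and by 0.77 (SE 0.257, adjusted p = 0.0103) in KO, to 1.03, 1.96, 1.16 and 1.85. The 2 ribophorin RNAs thus moved in opposite directions between the stages. The start of Rpn2 overlaps Mroh8 on the opposite strand. The rise of Rpn2 in KO libraries was no longer called with the GC trend removed (0.54, adjusted p = 0.0552). With 0.1 FPKM as filter and pseudocount, which is high against the deposited values of Rpn2, its differences were 0.57 in Het and 0.38 in KO, under 1.5-fold and not called.

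Tusc3 fell by 0.70 (SE 0.188, adjusted p = 0.00183) in Het and by 0.89 (SE 0.199, adjusted p = 3.28e-04) in KO libraries. The call in Het was lost without Het 2cell replicate C (-0.57) and with each library scaled to its sum (-0.53), and the falls were -0.44 and -0.46, under 1.5-fold, with the GC trend removed. Magt1 did not differ between the stages beyond its spread in Het (0.30, 95% interval -0.17 to 0.77, adjusted p = 0.235), but fell by 0.94 (SE 0.242, adjusted p = 0.00132) in KO libraries, a difference of -0.52 (adjusted p = 0.0587) with the GC trend removed and of -0.54, under 1.5-fold, with 0.1 FPKM as filter and pseudocount. Ddost rose by 0.77 (SE 0.216, adjusted p = 0.00280) and 0.96 (SE 0.229, adjusted p = 6.75e-04), with values of 0.46 and 0.48, under 1.5-fold, after the GC trend was removed. Dad1 changed by 0.57 (SE 0.141, adjusted p = 9.43e-04) in Het, just under 1.5-fold, and rose by 0.90 (SE 0.150, adjusted p = 1.07e-05) in KO. Its change in Het passed 1.5-fold without Het MII replicate B (0.61), Het 2cell replicate C (0.60), Het 2cell replicate D (0.65) or Het 2cell replicate E (0.59), with each library scaled to its sum (0.74) and with the GC trend removed (0.69). Stt3b changed by 0.47 (SE 0.104, adjusted p = 3.10e-04) in Het and by 0.42 (SE 0.111, adjusted p = 0.00181) in KO, small steps under 1.5-fold and near the median shift of all genes, although both were called with each library scaled to its sum (0.64 and 0.62). For Stt3a, given as a description because all these libraries took part in choosing it, the difference was -0.37 (SE 0.284) in Het and -1.33 (SE 0.301) in KO.

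**Figure D4:**
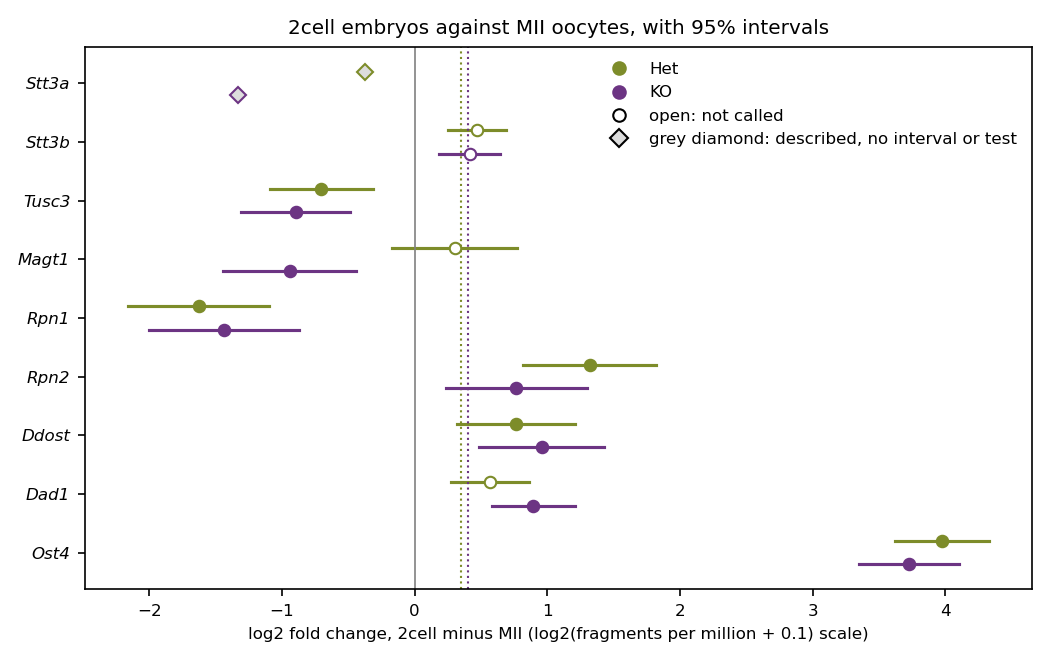
Log2 fold change 2cell minus MII for the 9 subunits in Het and KO libraries, on the log2(FPM + 0.1) scale. Filled circles were called, open circles were not, lines are 95% intervals from limma, grey diamonds are Stt3a, with no interval or test, and dotted lines are the medians of all genes (0.35 in Het, 0.41 in KO). Ost4 stood apart at 3.98 and 3.73, and Rpn1 at -1.63 and -1.44 lay opposite to Rpn2 at 1.32 and 0.77.

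The genes whose pattern over the 19 libraries was nearest to that of Stt3a were Haus3, Gm15459, Gm7964, Trim59 and Bet1. Likeness was the root mean square difference of log2 values after each gene was centred on its mean, among 5263 genes with a mean of at least 1 FPKM. It was 0.395 for Haus3 and 0.467 for Bet1, against a median of 1.33 over all genes compared. Of the other subunits only Stt3b, Dad1, Ddost and Ost4 passed that cut-off, and they ranked 1685, 2300, 2761 and 4407. Rpn1, Rpn2, Tusc3 and Magt1 were not compared. The cut-off is per kilobase of the whole gene span, so long introns lower the value. Tusc3, at a level of 20.1 in Het MII oocytes but with a span of 159270 bases, failed it, while Ddost at 3.46 passed. Relative to Het MII oocytes, Haus3 stood at -0.96 in KO MII, -0.05 in Het 2cell and -1.68 in KO 2cell libraries, and Stt3a at -1.27, -0.37 and -2.60.

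Around the complex, 90 genes of 6 lists were examined: 3 other subunits, 28 genes of dolichol-linked oligosaccharide assembly, 15 of trimming, the calnexin cycle and disposal in the endoplasmic reticulum, 19 of the translocon and signal peptide removal, 14 of Golgi N-glycan processing and 11 of the unfolded protein response. The 3 other subunits, Ostc, Krtcap2 and Tmem258, were called in neither genotype comparison, and Krtcap2 rose between the stages in Het (1.92) and KO (1.61). In KO MII oocytes 3 of the 73 genes tested rose and 7 fell, 13.7% in all, with a median of 0.03. In KO 2cell embryos 7 of 88 rose and 14 fell, 23.9%, with a median of -0.09. Neither share stood far from the 17.8% and 20.8% of all genes.

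In KO MII oocytes the largest fall was that of Man2a1, a Golgi mannosidase that trims N-glycans, from a level of 1.51 ± 0.244 to 0.546 ± 0.141 (log2 fold change -1.59, SE 0.207, adjusted p = 1.21e-04). Srpr, a subunit of the signal recognition particle receptor, rose from 7.55 ± 2.21 to 14.9 ± 1.53 (0.90, adjusted p = 6.83e-04). Os9, a lectin of glycoprotein disposal, rose by 0.77 and Edem3, a mannosidase of the same pathway, fell by 0.78. The other calls were of smaller size, with Alg10b (-0.72), Alg11 (-0.62), Ssr3 (-0.64), Spcs2 (-0.59) and Eif2ak3 (-0.64) lower and Sdf2l1 (0.66) higher. With the GC trend removed Alg10b (-0.48), Alg11 (-0.39), Ssr3 (-0.39), Spcs2 (-0.56), Os9 (0.51) and Sdf2l1 (0.40) were no longer called. Leaving out 1 library ended the call of Alg11 (Het MII replicate C, -0.55; KO MII replicate B, -0.58; KO MII replicate D, -0.57), of Ssr3 (Het MII replicate A, -0.56; Het MII replicate C, -0.58; KO MII replicate A, -0.55), of Sdf2l1 (Het MII replicate A, 0.56; KO MII replicate B, 0.58) and of Eif2ak3 (KO MII replicate A, -0.51). The other scalings, values as deposited and each library scaled to its sum, ended the calls of Alg11 (-0.50 and -0.44), Eif2ak3 (-0.52 and -0.46), Spcs2 (-0.46 and -0.41) and Ssr3 (-0.52 and -0.46), and scaling to the sum that of Alg10b (-0.54). With 0.1 FPKM as filter and pseudocount Alg11 (-0.56), Eif2ak3 (-0.32) and Spcs2 (-0.57) were not called. A pseudocount of 1 ended the calls of Alg11 (-0.57), Eif2ak3 (-0.55) and Spcs2 (-0.58). All 19 libraries in 1 fit ended those of Alg11 (adjusted p = 0.0947) and Spcs2 (adjusted p = 0.0594). Spcs2 was also lost with no filter on low values (adjusted p = 0.117) and with a pseudocount of 0.5 (-0.58). For Spcs2 the call was also lost without Het MII replicate A (-0.58), C (-0.50) or D (-0.60), or without KO MII replicate A (-0.38), B (-0.61) or C (-0.59).

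In KO 2cell embryos the unfolded protein response list moved in both directions, with 4 of its 11 genes higher and 3 lower, 63.6% called beside 20.8% of all genes (10.1% higher, 10.6% lower). The genes that fell encode the chaperones Hspa5 (BiP), from a level of 55.0 ± 3.71 to 28.3 ± 1.18 (-1.03, SE 0.126, adjusted p = 5.3e-05), Dnajb9, from 168 ± 25.8 to 70.4 ± 6.58 (-1.31, SE 0.150, adjusted p = 2.9e-05), and Hsp90b1 (-0.59). Those that rose were Herpud1, from 0.398 ± 0.179 to 2.78 ± 0.860 (2.70, SE 0.419, adjusted p = 3.8e-04), the transcription factor genes Ddit3 (1.60, SE 0.171) and Atf4 (0.73), and the stress sensor gene Ern1 (0.75). In MII oocytes 9 genes of this list were tested, with 1 higher and 1 lower (22.2%, beside 17.8% of all genes). The interaction with stage was called for 7 of the 11 genes (63.6%, beside 5.89% of all genes). The largest fall in the lists was that of Sec11a, a catalytic subunit of the signal peptidase, from 25.5 ± 3.06 to 6.44 ± 0.426 (-2.05, SE 0.157, adjusted p = 2.1e-06), and Ssr2, a subunit of the translocon-associated protein complex, fell by 1.02 (SE 0.247, adjusted p = 0.00732). Pdia3, the disulfide isomerase that works with calnexin, fell from 30.1 ± 8.04 to 13.0 ± 1.83 (-1.26, SE 0.185, adjusted p = 2.4e-04), and Edem3 fell by 1.01. Of the dolichol list 5 of 27 genes tested were lower, led by Pmm2 (-1.72, SE 0.401) and Alg11 (-1.37, SE 0.343), and 2 were higher, Dolpp1 (1.62, SE 0.555) and Srd5a3 (0.87, SE 0.293), 25.9% in all. Of the translocon list 4 of 19 were lower and 0 higher, 21.1%. Both shares lay near the 20.8% of all genes, and of the 13 Golgi genes tested 0 were called by limma. With the GC trend removed Alg11 (-0.98), Edem3 (-0.74), Os9 (0.28), Dolpp1 (1.23) and Srd5a3 (0.72) were no longer called, and with 0.1 FPKM as filter and pseudocount Edem3 (-0.48), Os9 (0.59), Dolpp1 (1.05) and Srd5a3 (0.70) were not. No filter on low values ended the calls of Dolpp1 (adjusted p = 0.0860), Os9 (adjusted p = 0.0601) and Srd5a3 (adjusted p = 0.0644). The calls of Os9, Dolpp1 and Srd5a3 also depended on single libraries: Dolpp1 was called in 2 of 9 fits without 1 library (log2 fold changes 1.18 to 1.77 where it was lost, without any library but Het 2cell replicates A and C), and Os9 (0.69) and Srd5a3 in 3 of 9. Os9 was lost without Het 2cell replicate B (0.71), D (0.59) or E (0.61) or KO 2cell replicate B (0.55), C (0.75) or D (0.61), and Srd5a3 without Het 2cell replicate B (0.80), D (0.86) or E (0.72) or KO 2cell replicate A (0.79), C (0.70) or D (0.91).

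**Figure D5:**
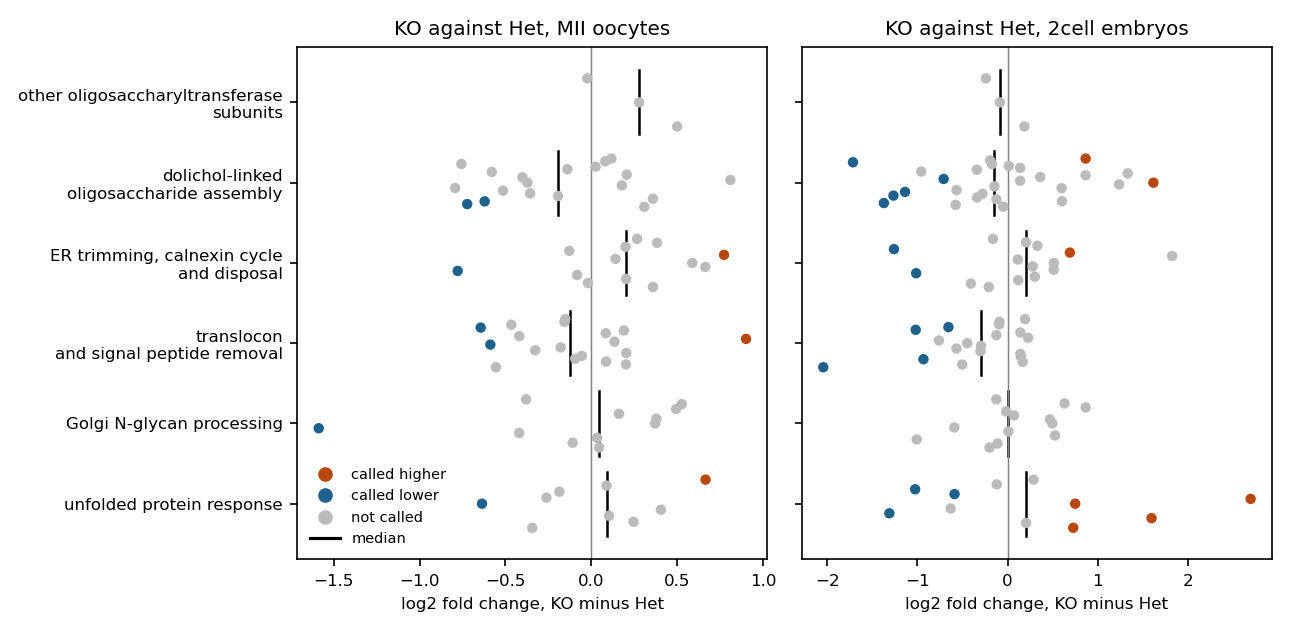
Log2 fold change KO minus Het of every gene tested in the 6 lists around the complex, in MII oocytes and 2cell embryos (the axes differ in range). Points are genes, coloured as called higher, called lower or not called, and black lines are list medians. In 2cell embryos Herpud1 (2.70) and Sec11a (-2.05) were the extremes, and the 11 unfolded protein response genes split into 4 higher and 3 lower.

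Between the stages 35 of 88 genes of the lists rose and 26 fell in Het, 69.3%, and 33 rose and 28 fell in KO, also 69.3%, close to the background given for the subunits. The largest rises in Het were those of Sec61a2 (7.57), a translocon channel subunit, Dnajb9 (6.84) and Mgat2 (5.52), a Golgi N-acetylglucosaminyltransferase. Ern1 (-3.30), Srd5a3 (-3.04) and Atf6 (-2.88) fell most. In KO the largest rises were those of Sec61a2 (6.71), Man2a2 (6.37) and Dpagt1 (5.63), the enzyme of the first step of dolichol-linked assembly, and the largest falls those of Alg8 (-3.17), Atf6 (-2.92) and Alg2 (-2.67). Sec61a2, Man2a2 and Dpagt1 were near 0 in oocytes, so their fold changes depend on the pseudocount and are no exact folds.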

How the data were processed

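RNA of MII oocytes and 2cell embryos was amplified with a SMART-seq v4 kit, which primes on poly(A) tails, so RNA with short tails is captured less well, and does not mark the strand. Per the labels, the authors trimmed reads with Trim Galore 0.4.1 and mapped them to GRCm38 with HISAT2 2.0.5. The deposited FPKM values, made by the authors in SeqMonk, were found to be fragments per kilobase of the whole gene span, introns included, per 1000000 fragments. In 1888 genes with long introns a median of 87.1% of the low values fell within 0.05 of a whole fragment with the span, against 10.1% with the exon length (10% by chance). Whether fragments in introns were counted is not given in the sources used here. The step size gave a depth of 17240000 to 23620000 fragments per library. The annotation behind the table is not given in the sources used here, and 97.1% of the 25595 genes matched by symbol to GENCODE had the same coordinates. 0 value columns were left unused.

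Values were multiplied by the span to give estimated fragments per 1000000 (FPM), which differs from the design first set down (FPKM with a filter and pseudocount of 0.1), kept as an alternative. Genes with at least 0.5 FPM in at least 5 libraries (MII) or 4 (2cell, all) entered. Scaling between libraries used a trimmed mean (30% of ratios and 5% of levels cut on each side), and limma 3.58.1 (R 4.3.3, trend) was run on log2(FPM + 0.1), a scale that understates changes of low genes, over all genes with Benjamini-Hochberg adjustment. A gene was called at adjusted p under 0.05 and over 1.5-fold (interaction: adjusted p alone). Genotype contrasts used 1 stage, stage contrasts and the interaction all 19 libraries. Intervals are limma's 95% intervals. The code was tested on simulated data. No source says that libraries of a group came from separate females, so p-values measure the spread between these libraries, and the counting error of few fragments adds to it.

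The members and lists were chosen with earlier results of these data known. Named genes were the 9 subunits, Cpeb3, of each list in each genotype comparison up to 2 called genes with the largest rise and 2 with the largest fall, over all lists in each stage comparison up to 3 and 3, and the 5 genes nearest to Stt3a. Ostc, Krtcap2, Tmem258, Hsp90b1, Atf4, Agbl5 and Mroh8 fall outside this rule and were named after their values were seen. Ern1 falls inside it for its stage change in Het, but not for its genotype difference. The markers Zp3, Gdf9, Dppa3, Zscan4c, Zscan4d and Cyp19a1 were singled out from their lists and also fall outside it. Alternatives were other scalings, pseudocounts and filters, a replicate block, removal of a loess trend with GC content, other sets of libraries and leaving out each library.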

Additional observations from a re-analysis of the deposited data

Results flagged for a closer look

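The effect of the KO label on Magt1 differed between the stages, with KO minus Het lower by 1.25 on the log2 scale in 2cell embryos than in MII oocytes (difference -1.25, limma, SE 0.332, adjusted p = 0.0284). It was flagged because the interaction term passed its threshold, as it did for 5.89% of all genes. The call was lost in limma with the GC trend removed (adjusted p = 0.0601) and with the replicate block (adjusted p = 0.0714). It was also lost in 6 of 19 fits without 1 library. The KO 2cell libraries were below all Het 2cell libraries in 4 of 4, while the oocyte groups overlapped. For Cpeb3, Het 2cell replicate D had a level of 1.43 in a group with a median of 0.621, and KO 2cell replicate B a level of 0.915 in a group with a median of 1.54. Both were flagged because the gap to the nearest library was a large part of the range of the group (0.832 and 0.873, both above Dixon's critical value). No library stood apart by this criterion in any of the 36 combinations of subunit and group, and chance flags about 1 in 20.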

How the results depend on the processing

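Between genotypes in MII oocytes 2262 genes were called, and 1757 to 2560 when each replicate was left out. With a mean of at least 1 FPKM 812 were called, and 1345 with 0.1 FPKM as filter and pseudocount. The latter was the design first set down and became an alternative after the data had been seen, when a pseudocount of 0.5 was also added. Of the 8 subunits other than Stt3a 0 were called, and 1, Rpn2, with unadjusted p, with scaling to library sums and with no scaling (leave-one-out 0 to 1). In 2cell embryos 3425 genes were called, and 1570 with a mean of at least 1 FPKM (leave-one-out 2696 to 3518). Of the 8 subunits 1, Magt1, was called, 0 with that filter, which removes Magt1, or with the GC trend removed, and 2 (Tusc3 as well) with a pseudocount of 1 or 0.5, with all 19 libraries in 1 fit and with unadjusted p (leave-one-out 1 to 2). Between the stages the calls in Het went from 12369 to 3945 with that filter (leave-one-out 11981 to 12731) and those in KO from 12177 to 3899 (11888 to 12312), since fewer genes were tested. Of the 8 subunits those called went from 5 to 2 in Het (leave-one-out 5 to 6) and from 7 to 3 in KO (7 to 7), where removing the GC trend also left 3. The filter works on values per kilobase of the gene span and removed Rpn1, Rpn2, Tusc3 and Magt1 from the stage comparisons. The interaction gave 1046 genes, 1647 with a pseudocount of 1, 674 with that filter and 651 with the replicate block (leave-one-out 705 to 1303), and 0 subunits instead of 1 with the filter, the block or the GC trend removed (leave-one-out 0 to 1). In the limma fit 3803 genes had an unadjusted interaction p under 0.05. The cause of these shifts was not tested except where named.

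Libraries share letters across genotypes. The correlation of same-letter deviations ran from -0.129 to 0.0557 among MII libraries and from -0.0659 to 0.0444 among 2cell libraries. Pairs of different letters ran from -0.218 to 0.198 and from -0.131 to 0.113. With only 5 and 4 same-letter pairs, these values cannot tell whether letters mark libraries handled together. With the replicate block 1897 and 2430 genes were called between genotypes and the call was lost for the interaction of Magt1 (adjusted p = 0.0714). Also lost with the block were the calls of Eif2ak3 (adjusted p = 0.0546) and Spcs2 (0.0665) in MII oocytes and of Os9 (0.136) and Srd5a3 (0.109) in 2cell embryos. No direction of a called subunit reversed. Over the settings run for the 8 subunits, 972 values kept their side of the threshold, 19 gained and 20 lost the call, and for 30 other genes 970 kept it, 7 gained and 77 lost it. Depth limits Magt1, Rpn2 and, in 2cell embryos, Rpn1, which had under 100 estimated fragments in at least 1 library.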
